A study of Mus musculus with 12 samples.

Results

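The genes described here encode 7 lectin-like receptors of natural killer (NK) cells (Klrd1, Klrc1, Klrc2, Klre1, Klrb1b, Klrg1 and Klrb1c) and the activating receptor NKp46 (Ncr1). They were chosen by symbol, and all 8 were found among the 50674 genes of the deposited table. All 8 also passed the filter on low counts that left 17457 genes for testing. RNA was measured in NK cells from mouse spleen that had been expanded in culture with the cytokine IL-2, from C57BL/6 mice. The cells were either wild-type or Mirc11-/-, which lack a cluster of microRNA genes for miR-27a, miR-23a and miR-24-2. Cells of each genotype were left unstimulated or received 6 h of NKG2D stimulation, per the labels. This gave 4 groups of 3 libraries, described by the submitters as biological replicates. All 4 groups share the IL-2 expansion, so no group shows freshly isolated cells. The sources used here give no age or sex of the mice, do not say whether mice were pooled and do not describe how the cluster was deleted.

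NK cells decide whether to kill or spare a target by adding up signals from activating and inhibitory receptors. CD94, the product of Klrd1, pairs with the inhibitory NKG2A (Klrc1) or the activating NKG2C (Klrc2) to read the non-classical class I molecule Qa-1. The NKR-P1 receptors read Clr proteins on neighbouring cells, and Klrb1b encodes an inhibitory member while Klrb1c encodes the activating NKR-P1C that serves as an NK cell marker in C57BL/6 mice. KLRG1 is an inhibitory receptor for cadherins, KLRE1 pairs with KLRI1 or KLRI2, and NKp46 signals through the adaptor chains Fcer1g and Cd247.

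The mature microRNAs encoded in the deleted cluster are shown because their seeds (bases 2 to 8, in capitals) set which messages they can pair with. They are the RefSeq sequences on GRCm38.p6, written 5′ to 3′, and the 3 seeds all differ. Whether other loci still supply the same sequences or seeds in Mirc11-/- cells was not examined.
miR-23a-3p: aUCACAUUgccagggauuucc
miR-27a-3p: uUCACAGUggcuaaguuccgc
miR-24-3p: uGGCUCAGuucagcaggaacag

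The complement of a seed was found in the annotated 3′ untranslated regions of 4 of the 8 genes (Klre1, Klrb1b, Klrg1 and Ncr1). Of all 21016 genes with an annotated 3′ untranslated region, 36.5% held at least 1 of the 3 complements. AATGTGA (miR-23a) was present in 15.1% of them, ACTGTGA (miR-27a) in 16% and CTGAGCC (miR-24) in 16.2%. The sites are printed in 26-base windows from GENCODE vM21 transcripts, with the complement in capitals. Each match is a description of letters and was not tested as a target site.
Klre1, miR-23a: tattttatgaagaaAATGTGAcaaat
Ncr1, miR-23a: aataacttcgttccAATGTGAtggcc
Ncr1, miR-27a: gcattctaaaggacACTGTGAgagga
Klrb1b, miR-24: tgtaccagcagaccCTGAGCCaaggc
Klrg1, miR-24: gatgccactgtgtcCTGAGCCtcgga

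Total counts per library ran from 15139281 to 25342991, and the 8 genes had between 483 and 6916 counts in every library. The precursor gene Mir27a had 0 to 4 counts in the 6 wild-type libraries and 0 in the 6 Mirc11-/- libraries. Gm26532, a transcript annotated at the 3′ end of the cluster, had 64 to 87 counts in the wild-type and 14 to 25 in the Mirc11-/- libraries, so the libraries matched their genotype labels. All 10 genes of an NK cell marker list were detected in every group, while the summed level of 4 neutrophil markers stayed between 0.765 and 2.2 CPM (counts scaled by library depth). The summed level of 11 T cell markers was 314 to 454 CPM in the 12 libraries, with Cd3e between 6.30 and 22.96 CPM. Most of that sum came from Trbc1 (group means from 187 to 231 CPM) and Trbc2 (78.8 to 97.9 CPM). Other marker sums were higher in stimulated libraries. In wild-type cells the sum of 6 B cell markers was 57.1 to 71.9 CPM unstimulated and 105 to 128 CPM stimulated, that of 6 dendritic cell markers 11.3 to 15.6 and 26.1 to 29.7 CPM, and that of 6 markers of type 1 innate lymphoid cells (ILC1) 206 to 213 and 299 to 331 CPM. These sums in Mirc11-/- cells were 64.2 to 73.2 and 102 to 113 CPM, 11.1 to 14.2 and 23.1 to 33.6 CPM, and 253 to 261 and 289 to 307 CPM. Most of each sum came from 1 gene, Ighm (B cells), Zbtb46 (dendritic cells) or Itga1 (ILC1). Itga1 averaged 144 CPM unstimulated and 248 CPM stimulated in wild-type cells, and 171 and 221 CPM in Mirc11-/- cells. The median log2 change of the 5 tested ILC1 markers was -0.08 in wild-type and 0.07 in Mirc11-/- cells. Sums of 6 macrophage and monocyte markers lay between 34.8 and 78.3 CPM in all groups. Of the 28 tested markers of cells other than NK cells, 7 rose and 0 fell in wild-type cells (among them Cd4, Cd6, Pax5, Ighm and Itga1) and 12 rose and 1 (Tnfsf10) fell in Mirc11-/- cells, against 16.1% of all tested genes called higher and 15.7% lower in wild-type and 23.5% and 22.1% in Mirc11-/- cells. Cd4 had at most 1.48 CPM in any library, and the part of other cells in the receptor changes on stimulation was not tested. Reads of vomeronasal receptor genes, which are not known as NK cell genes, summed to 13.6 to 17.4 CPM in the unstimulated libraries of both genotypes. That sum was 24.8 to 41.5 CPM in stimulated wild-type and 49.1 to 85.4 CPM in stimulated Mirc11-/- libraries. As a covariate it therefore cannot be told apart from stimulation or, in stimulated cells, from genotype. Stimulated Mirc11-/- replicate 1 had the highest sum and also the lowest level in its group for 6 of the 8 genes (Klrd1, Klre1, Klrb1b, Klrg1, Klrb1c and Ncr1). Calls of the 8 genes that end or appear without this library, or with the vomeronasal sum as a covariate, are given beside each gene. The main turns of direction and moves of values in those fits are given there too.

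After NKG2D stimulation, Klrb1c and Ncr1 fell and Klrb1b rose in both genotypes. Klrd1 and Klrg1 also rose in wild-type cells. In wild-type cells 5 of the 8 genes were called (3 higher and 2 lower), against 31.8% of all tested genes, 16.1% of them called higher and 15.7% lower. In Mirc11-/- cells 3 of the 8 were called (1 higher and 2 lower), against 45.6% of all tested genes, 23.5% higher and 22.1% lower. The median log2 change of the 8 was 0.20 in wild-type and 0.06 in Mirc11-/- cells, beside 0.02 and 0.03 over all tested genes. Called means an adjusted p under 0.05 in edgeR's quasi-likelihood test with Benjamini-Hochberg adjustment over all tested genes, and every adjusted p comes from that test unless another is named. In bulk RNA, fewer cells of a type and less RNA per cell cannot be told apart. Lack of overlap between groups of 3 libraries is given as a description only, since the share of all tested genes without overlap is not given here.

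**Figure D1:**
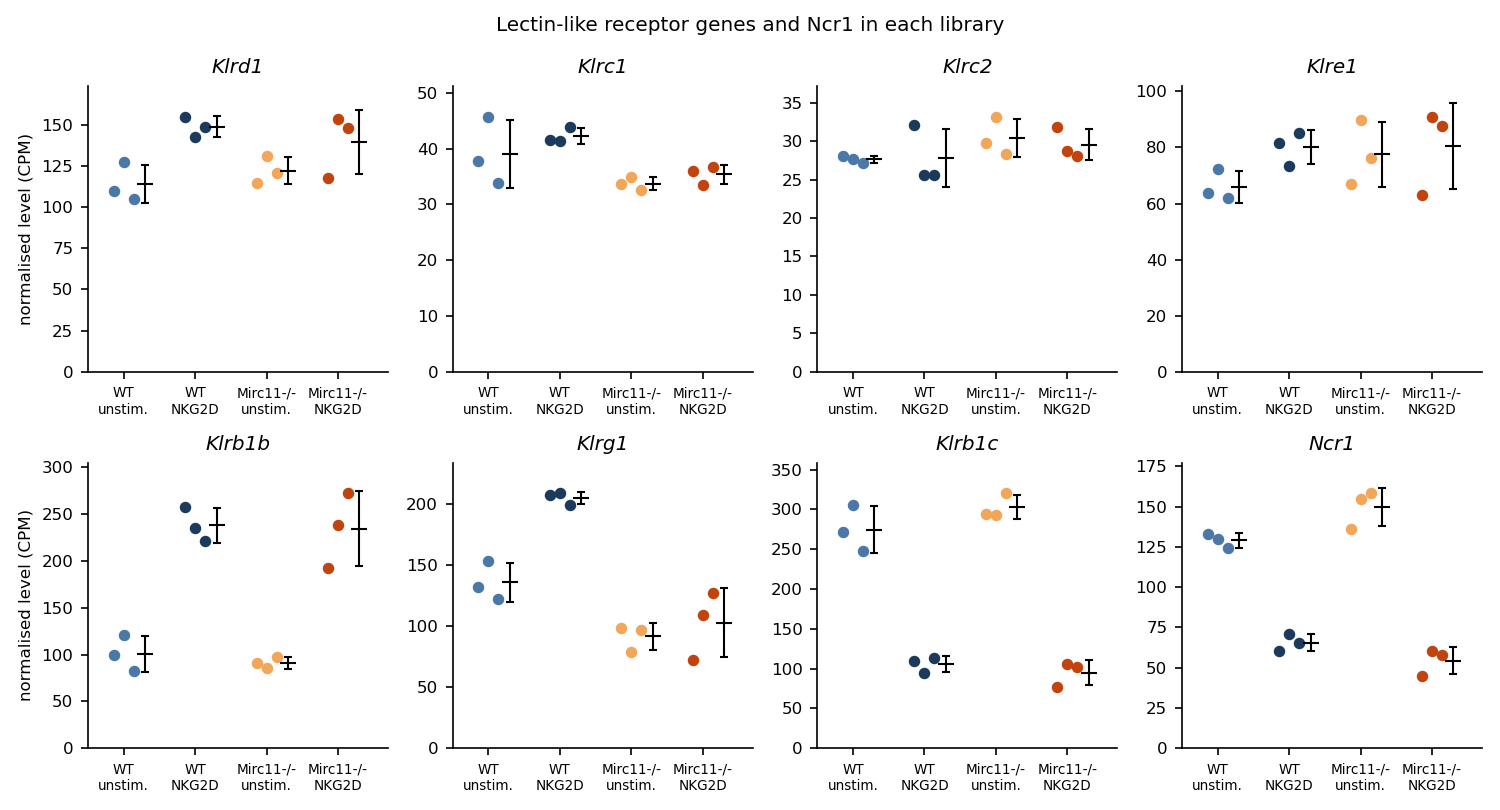
Level of each gene in CPM (vertical axis, linear, from 0) in the 12 libraries, by group. Points are libraries and the bars beside them give the mean and SD of 3. In both genotypes Klrb1c and Ncr1 are lower and Klrb1b is higher in all 3 stimulated than in all 3 unstimulated libraries, and under each treatment Klrg1 is lower in all 3 Mirc11-/- than in all 3 wild-type libraries.

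Klrb1c (ENSMUSG00000030325, chr6:128778485-128789215, minus strand, GRCm38), the activating NKR-P1C, had the largest fall of the 8 genes in both genotypes. Its levels were 271.4, 305.5 and 247.1 CPM in unstimulated wild-type replicates 1 to 3 and 109.3, 94.96 and 113.1 CPM after stimulation. In Mirc11-/- cells they were 294.6, 293.5 and 320.4 CPM unstimulated and 77.1, 106.3 and 101.5 CPM stimulated. No stimulated library reached the lowest unstimulated one in either genotype. The fall was 2.60-fold in wild-type cells (log2 change -1.38, SE 0.12, adjusted p 3.13e-06) and 3.19-fold in Mirc11-/- cells (log2 change -1.67, SE 0.12, adjusted p 4.26e-07). Klrb1c ranked 334th among the falls of all 17457 genes in wild-type cells and 234th in Mirc11-/- cells. With the vomeronasal covariate, the Mirc11-/- fall became -1.11 and its adjusted p 0.0623, while over all 20 alternatives that adjusted p ran from 7.82e-36 to 0.0623. Of the 31-base words of its transcripts, 21.2% were shared with other genes. The gene sharing the most was Gm44511, an annotated read-through model over Klrb1b and Klrb1c that itself had 8.71 to 19.1 CPM. The counts of Klrb1c carry that uncertainty.

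Ncr1 (ENSMUSG00000062524, chr7:4337724-4345164, plus strand, GRCm38) encodes NKp46, an immunoglobulin-like receptor and the only one of the 8 on chromosome 7. Unstimulated wild-type libraries held 133.2, 130.0 and 124.0 CPM and stimulated ones 60.3, 70.8 and 65.4 CPM. Unstimulated Mirc11-/- libraries held 136.3, 154.8 and 158.4 CPM and stimulated ones 45.0, 60.4 and 57.7 CPM. The groups did not overlap in either genotype. Ncr1 fell 1.97-fold in wild-type cells (log2 change -0.98, SE 0.11, adjusted p 2.01e-05), the 852nd largest fall, and 2.75-fold in Mirc11-/- cells (log2 change -1.46, SE 0.11, adjusted p 4.55e-07), the 330th. With the vomeronasal covariate, the Mirc11-/- value became -0.81 with adjusted p 0.0872, and over all 20 alternatives the adjusted p ran from 4.03e-33 to 0.0872. In wild-type cells the call for Ncr1 held in all 20 alternatives, between -1.05 and -0.65, as it did for Klrb1c, between -1.46 and -1.08. Klrb1c and Ncr1 are also in the NK cell marker list, of which 8 of 10 genes fell and 1 (Tbx21) rose in each genotype, against 15.7% of all tested genes called lower in wild-type and 22.1% in Mirc11-/- cells. The list's summed level was 14116 to 16741 CPM in unstimulated and 9975 to 11578 CPM in stimulated wild-type libraries, and 14863 to 16449 and 5694 to 9095 CPM in the Mirc11-/- ones, and the part of a shift across NK markers in the change of the 2 receptors was not tested.

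Klrb1b (ENSMUSG00000079298, chr6:128813706-128826331, minus strand, GRCm38), the inhibitory NKR-P1 receptor, moved the other way. Its levels in wild-type replicates 1 to 3 were 99.5, 120.3 and 81.9 CPM unstimulated and 257.7, 234.5 and 221.1 CPM stimulated. In Mirc11-/- cells they were 90.7, 85.1 and 97.2 CPM unstimulated and 192.4, 238.3 and 272.0 CPM stimulated. Every stimulated library lay above every unstimulated one. The rise was 2.37-fold in wild-type cells (log2 change 1.24, SE 0.14, adjusted p 2.82e-05) and 2.57-fold in Mirc11-/- cells (log2 change 1.36, SE 0.14, adjusted p 8.11e-06), and both calls held in all 20 alternatives. With the vomeronasal covariate the log2 changes were 1.47 in wild-type and 1.78 in Mirc11-/- cells. Of the 31-base words of Klrb1b 30.8% were shared with other genes, with the read-through model Gm44511 sharing the most. The log2 ratio of Klrb1c to Klrb1b was above 0 in every unstimulated library and below 0 in every stimulated one. It was 1.45, 1.34 and 1.59 in unstimulated wild-type cells and -1.24, -1.30 and -0.97 in stimulated ones. In Mirc11-/- cells it was 1.70, 1.79 and 1.72 unstimulated and -1.32, -1.17 and -1.42 stimulated. That ratio was chosen after its values were seen and is given as a description.

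Klrd1 (ENSMUSG00000030165, chr6:129591782-129598775, plus strand, GRCm38), the CD94 chain, held 109.9, 127.0 and 105.1 CPM in unstimulated and 154.9, 142.2 and 148.8 CPM in stimulated wild-type libraries. All 3 stimulated libraries were higher, by 1.304-fold (log2 change 0.38, SE 0.11, 95% interval 0.15 to 0.61, adjusted p 0.0149). The call ended without unstimulated wild-type replicate 1 (log2 change 0.35, adjusted p 0.0685), unstimulated replicate 3 (0.32, adjusted p 0.0778) or stimulated replicate 1 (0.35, adjusted p 0.0627), the range over all 20 alternatives being 0.00132 to 0.0778. The Mirc11-/- libraries held 114.6, 131.1 and 120.6 CPM unstimulated and 117.4, 153.2 and 148.2 CPM stimulated. They overlapped through replicate 1 of the stimulated group, and the difference was not called (log2 change 0.19, 95% interval -0.04 to 0.42, adjusted p 0.157). Without that library it was called (log2 change 0.31, adjusted p 0.00933, the lowest of a range up to 0.511 over the 20 alternatives). The vomeronasal covariate gave Klrd1 a log2 change of 0.57 in wild-type cells, called, and 0.56 in Mirc11-/- cells, not called.

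The 2 NKG2 chains that pair with CD94 were the 2 lowest of the 8 genes per length in all 4 groups. Klrc1 (ENSMUSG00000030167, chr6:129666015-129678973, minus strand, GRCm38) held 37.8, 45.7 and 33.8 CPM in unstimulated and 41.5, 41.4 and 43.8 CPM in stimulated wild-type libraries, and 33.7, 34.9 and 32.5 CPM, then 35.9, 33.5 and 36.6 CPM, in the Mirc11-/- ones. Stimulation made no called difference in wild-type (log2 change 0.11, 95% interval -0.10 to 0.32, adjusted p 0.406) or Mirc11-/- cells (0.07, 95% interval -0.15 to 0.28, adjusted p 0.602). Klrc2 (ENSMUSG00000052736, chr6:129647496-129660689, minus strand, GRCm38) held 28.1, 27.7 and 27.2 CPM in unstimulated and 32.1, 25.6 and 25.6 CPM in stimulated wild-type libraries. Its Mirc11-/- levels were 29.7, 33.2 and 28.3 CPM unstimulated and 31.9, 28.7 and 28.03 CPM stimulated, and the log2 changes on stimulation were 0.01 (95% interval -0.21 to 0.22, adjusted p 0.974) and -0.04 (95% interval -0.26 to 0.18, adjusted p 0.770). With the vomeronasal covariate the changes of Klrc2 were -0.31 and -0.66, and those of Klrc1 were 0.19 and 0.22, none called. Klrc1 and Klrc2 share 53.1% and 39.0% of their 31-base words with other genes, and for each of them the gene sharing the most was the other. The split of reads between them is therefore uncertain, and their sum does not depend on that split. The summed level was 66.7 ± 6.28, 70.0 ± 3.37, 64.1 ± 3.71 and 64.9 ± 2.81 CPM (SD, n = 3 each) in unstimulated and stimulated wild-type and unstimulated and stimulated Mirc11-/- cells.

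The balance of Klrc1 to Klrc2 in each library, on the log2 scale and free of scaling between libraries, was lower on average in Mirc11-/- cells. It was 0.43, 0.72 and 0.31 in unstimulated and 0.37, 0.69 and 0.78 in stimulated wild-type libraries, and 0.18, 0.07 and 0.20 in unstimulated and 0.17, 0.22 and 0.39 in stimulated Mirc11-/- libraries. Unstimulated cells had mean ratios of 1.40 (wild-type) and 1.11 (Mirc11-/-) on the linear scale, and stimulated cells had 1.53 and 1.20. The mean genotype difference was -0.34 (unstimulated -0.34, stimulated -0.35; exact permutation test within treatments, two-sided, p = 0.01, where the smallest possible p is 0.005, and 0.02 after Benjamini-Hochberg adjustment over the 2 ratio tests). That test takes the 6 libraries of a genotype as separate, while same-numbered wild-type libraries of the 2 treatments deviated together. The ratio was also chosen with earlier results of these data known, so its p is not that of a ratio fixed before the data were seen. With 1 value per replicate number and genotype, the mean of both treatments, wild-type values ran from 0.40 to 0.71 and Mirc11-/- values from 0.15 to 0.29. The exact permutation test of these 3 against 3, two-sided and chosen after seeing the data, gave p = 0.1, the smallest it can give, so it cannot pass 0.05. The stimulation difference was 0.12 (exact permutation test within genotypes, two-sided, p = 0.22, adjusted 0.22). Leaving out single libraries gave genotype differences from -0.41 to -0.29, with exact permutation p from 0.005 to 0.025. The 2 unstimulated groups did not overlap, since the lowest wild-type ratio was 0.31 and the highest Mirc11-/- one 0.20. The stimulated groups did overlap, since 1 wild-type value (0.37) lay below 1 Mirc11-/- value (0.39).

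**Figure D2:**
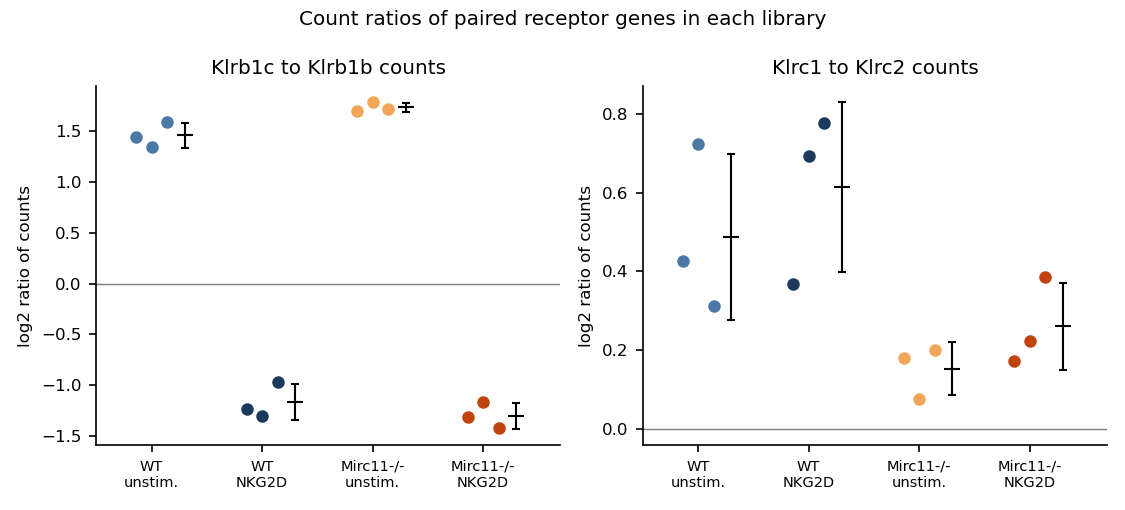
Log2 ratio of Klrb1c to Klrb1b and of Klrc1 to Klrc2 counts in each library (vertical axes), by group. Points are libraries and the bars beside them give the mean and SD of 3. Klrc1 to Klrc2 lies lower in Mirc11-/- groups (means 0.15 and 0.26) than in wild-type groups (0.49 and 0.61). Klrb1c to Klrb1b is above 0 in every unstimulated and below 0 in every stimulated library.

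Klre1 (ENSMUSG00000050241, chr6:129577905-129585827, plus strand, GRCm38) held 63.7, 72.3 and 61.9 CPM in unstimulated and 81.6, 73.6 and 85.2 CPM in stimulated wild-type libraries, which do not overlap. The difference was not called in the test (log2 change 0.28, 95% interval -0.01 to 0.57, adjusted p 0.133). It was called with replicate numbers as a block within genotype (log2 change 0.28, adjusted p 0.0408) and without stimulated Mirc11-/- replicate 1 (0.28, adjusted p 0.0341, with a range of 0.0341 to 0.324 over the 20 alternatives). In Mirc11-/- cells it held 66.9, 89.9 and 76.1 CPM unstimulated and 63.1, 91.0 and 87.5 CPM stimulated, which overlapped (log2 change 0.05, 95% interval -0.24 to 0.35, adjusted p 0.774). The Mirc11-/- change was 0.21 without stimulated replicate 1, and with the vomeronasal covariate the changes were 0.55 in wild-type and 0.56 in Mirc11-/- cells, none of these called.

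Klrg1 (ENSMUSG00000030114, chr6:122270596-122282882, minus strand, GRCm38), the inhibitory cadherin receptor, showed the only called genotype difference among the 8. Its wild-type levels were 132.1, 152.7 and 122.1 CPM unstimulated and 206.9, 208.6 and 199.2 CPM stimulated. Its Mirc11-/- levels were 98.3, 79.0 and 97.0 CPM unstimulated and 71.8, 109.3 and 126.9 CPM stimulated. Stimulation raised it in wild-type cells by 1.51-fold (log2 change 0.60, SE 0.17, adjusted p 0.0152). That call ended without unstimulated wild-type replicate 1 (log2 change 0.57, adjusted p 0.0558) or 3 (0.52, adjusted p 0.0684), the range over the 20 alternatives being 0.00027 to 0.0684, and with the vomeronasal covariate the change was 1.06. In Mirc11-/- cells the stimulated group overlapped the unstimulated one and the difference was not called (log2 change 0.17, 95% interval -0.19 to 0.53, adjusted p 0.437). Without stimulated Mirc11-/- replicate 1 it was called (log2 change 0.37, adjusted p 0.0128, in a range of 0.0128 to 0.928), and the vomeronasal covariate gave a log2 change of 1.05 with no call. The rise in wild-type and the missing call in Mirc11-/- cells do not show that the responses differ, and the test of their difference was not past the threshold (log2 difference -0.43, adjusted p 0.491).

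Comparing genotypes in stimulated cells, 1 of the 8 genes was called, Klrg1, lower in Mirc11-/- cells, against 9.02% of all tested genes (3.89% higher and 5.13% lower). Stimulated Mirc11-/- libraries held at most 126.9 CPM of Klrg1 and stimulated wild-type libraries at least 199.2 CPM. The mean was 205 ± 4.99 CPM in wild-type and 103 ± 28.2 CPM in Mirc11-/- cells (SD, n = 3), 1.99-fold lower (log2 change -0.997, SE 0.17, adjusted p 0.00479). Klrg1 was the 245th largest fall of the 17457 genes in that comparison. The call ended with the vomeronasal covariate (log2 change -0.55, adjusted p 0.935), and over the 19 alternatives for that comparison the adjusted p ran from 7.67e-07 to 0.935. In the same comparison 3 of 10 NK cell markers fell (Eomes, Prf1 and Nkg7) and 2 of 11 T cell markers rose (Cd8b1 and Cd6), as did 1 of 3 tested B cell markers (Pax5), against 5.13% of all tested genes called lower and 3.89% higher. The median log2 difference of the T cell markers was 0.41, with T cell sums of 351 to 390 CPM in stimulated wild-type and 325 to 372 CPM in stimulated Mirc11-/- libraries. Trbc1, the largest part of these sums, averaged 230 CPM in stimulated wild-type and 187 CPM in stimulated Mirc11-/- libraries. The part of these marker differences in the Klrg1 difference was not tested. Klrc1 held 41.4 to 43.8 CPM in stimulated wild-type and 33.5 to 36.6 CPM in stimulated Mirc11-/- libraries, with no overlap, and was not called (log2 change -0.26, SE 0.10, adjusted p 0.104). Ncr1 was not called either (log2 change -0.27, SE 0.11, adjusted p 0.118), and the other 5 had log2 differences from -0.16 to 0.09. With the vomeronasal covariate the differences of Ncr1 (0.08), Klrb1c (0.14), Klrd1 (0.10), Klrb1b (0.19) and Klrc2 (-0.23) changed sign, Klre1 moved to 0.27, and none of these was called. Without stimulated Mirc11-/- replicate 1, Klrg1 stayed called (-0.80), Ncr1 was at -0.15 and Klrb1c at -0.03, and Klrd1 (0.02) and Klrb1b (0.10) changed sign, uncalled. The median over the 8 was -0.12, against 0.02 over all tested genes.

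In unstimulated cells edgeR's quasi-likelihood test called 0 of the 8 genes, limma voom called 0 and DESeq2 called 1 (Klrg1, adjusted p 0.0427), against 1.11% of all tested genes called by edgeR (0.309% higher and 0.796% lower). Over all tested genes edgeR called 193, limma voom 184 and DESeq2 382. Only Klrg1 had an unadjusted p under 0.05, in each of the 3 tools, which used the same libraries. The share of all tested genes with an unadjusted p under 0.05 is not given here. Unstimulated Mirc11-/- libraries held 79.0 to 98.3 CPM of Klrg1 and wild-type ones 122.1 to 152.7 CPM, with no overlap and a log2 difference of -0.57 (SE 0.17, 95% interval -0.93 to -0.21, adjusted p 0.168). Without stimulated Mirc11-/- replicate 1 in the shared fit, the same difference (-0.58) was called with an adjusted p of 0.0051, the range over the 19 alternatives being 0.0051 to 0.585. Klrc2 and Ncr1 also did not overlap, with differences of 0.14 (95% interval -0.08 to 0.36) and 0.21 (95% interval -0.01 to 0.44), neither called. No share of all tested genes without overlap is given beside them. This comparison shares the unstimulated wild-type libraries with the stimulation comparison, so the values are set side by side only.

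The stimulation response was compared between genotypes by the interaction, the Mirc11-/- change minus the wild-type change. EdgeR's quasi-likelihood test, DESeq2 and limma voom each called 0 of the 8, beside 0.0115% of all tested genes in edgeR. In each tool 1 of the 8, Ncr1, had an unadjusted p under 0.05. The tools used the same libraries, and the share of all tested genes under that unadjusted threshold is not given here. Ncr1 had the most negative difference (log2 difference -0.48, SE 0.15, 95% interval -0.81 to -0.16, adjusted p 0.406). Klrg1 had a difference of -0.43 (95% interval -0.93 to 0.08, adjusted p 0.491) and Klrb1c one of -0.30 (95% interval -0.67 to 0.07, adjusted p 0.4996). Klrb1b had 0.12 (95% interval -0.31 to 0.55), and the differences of Klrd1 (-0.19), Klre1 (-0.23), Klrc1 (-0.05) and Klrc2 (-0.05) had intervals that include 0. The vomeronasal covariate gave differences of -0.16 for Ncr1, -0.01 for Klrg1, -0.03 for Klrb1c, 0.32 for Klrb1b and -0.35 for Klrc2, which was then the most negative of the 8. With it Klrd1 was at -0.02, and Klrc1 (0.03) and Klre1 (0.01) changed sign. Without stimulated Mirc11-/- replicate 1, the differences were -0.35 for Ncr1, -0.22 for Klrg1, -0.16 for Klrb1c, 0.25 for Klrb1b and -0.07 for Klrd1 and Klre1. No member was called in either fit.

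**Figure D3:**
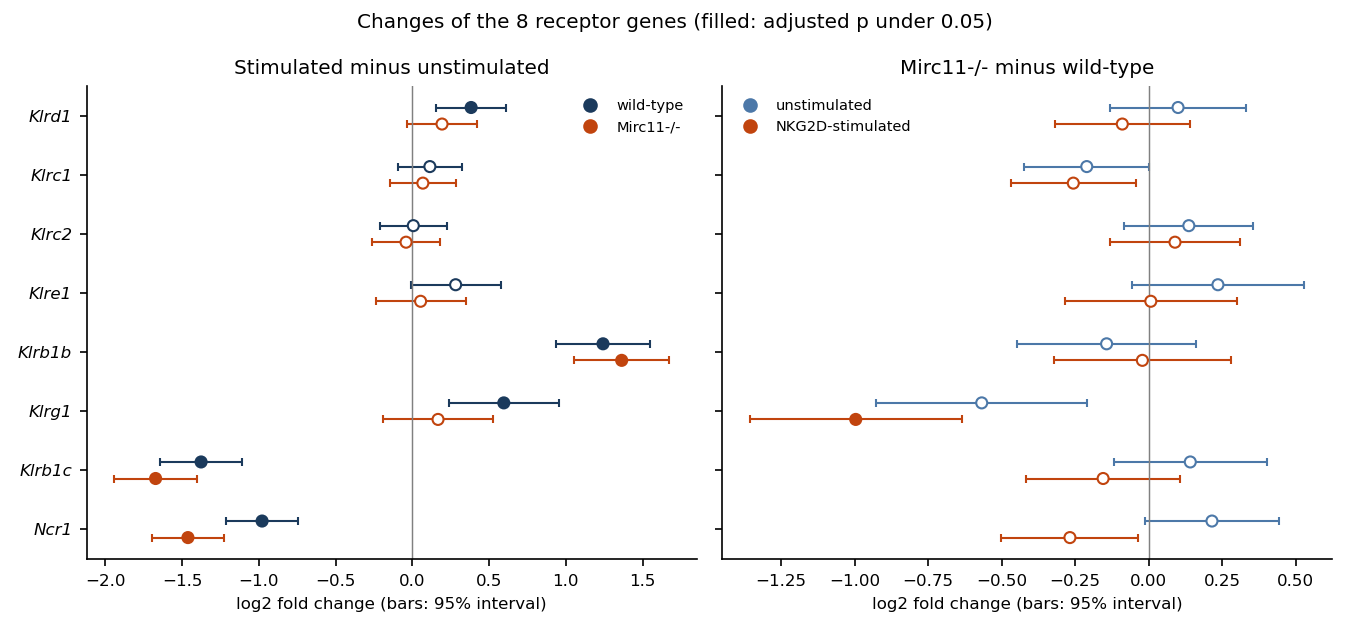
Log2 change of each gene on stimulation in wild-type and Mirc11-/- cells (left panel) and genotype difference in unstimulated and stimulated cells (right panel), both on horizontal axes, with bars for the 95% interval and filled points for an adjusted p under 0.05. The changes of Klrb1c and Ncr1 lie to the left and that of Klrb1b to the right of 0 in both genotypes, and in stimulated cells Klrg1 (-0.997) lies farthest left of the genotype differences.

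Per kilobase of the longest coding transcript, the scale used for comparing genes, unstimulated wild-type cells had, from highest to lowest, Klrd1 (124 ± 12.5 CPM per kb), Klrb1c (105 ± 11.2), Klrg1 (95.9 ± 11.1), Ncr1 (86.4 ± 3.14), Klre1 (51.0 ± 4.31), Klrb1b (45.1 ± 8.62), Klrc1 (19.7 ± 3.07) and Klrc2 (9.84 ± 0.163) (SD, n = 3). The ranges of Klrd1 and Klrb1c, of Klrb1c and Klrg1, of Klrg1 and Ncr1, and of Klre1 and Klrb1b overlapped, while Ncr1 and Klre1, Klrb1b and Klrc1, and Klrc1 and Klrc2 were apart. With exon union lengths Klrg1 moved ahead of Klrb1c in that group only. In stimulated wild-type cells Klrd1 (162 ± 6.88 CPM per kb) stayed first, Klrg1 (145 ± 3.53) second and Klrb1b (107 ± 8.31) the third, and Ncr1 (43.8 ± 3.49) and Klrb1c (40.3 ± 3.64), whose ranges overlapped, stood below Klre1 (61.9 ± 4.62). In unstimulated Mirc11-/- cells the order began with Klrd1 (133 ± 9.09), Klrb1c (115 ± 5.80) and Ncr1 (100.2 ± 7.92), whose ranges were apart, and Klrg1 (64.7 ± 7.61) overlapped Klre1 (60.0 ± 8.94). In stimulated Mirc11-/- cells Klrd1 (152 ± 21.1) was first, Klrb1b (105 ± 17.9) second, and Klrg1 (72.6 ± 19.9) the third, with a range that overlapped those of Klrb1b and Klre1 (62.2 ± 11.8). Klrc1 and Klrc2 were seventh and eighth in all 4 groups.

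Over the 12 libraries, the distance between 2 genes' log2 levels, each centred on its own mean, was taken as the root mean square (RMS). Among the 8 genes, Klrd1 and Klre1 were closest (0.106), followed by Klrd1 and Klrc1 (0.192) and by Klrb1c and Ncr1 (0.197), and Klrb1b and Klrb1c were farthest apart (1.42). The RMS spread of each gene around its own mean was 0.189 for Klrd1, 0.159 for Klrc1, 0.116 for Klrc2 and 0.198 for Klre1. For Klrb1b, Klrg1, Klrb1c and Ncr1 it was 0.674, 0.499, 0.781 and 0.636. Distances are not scaled by these spreads, so genes that vary little lie close to each other. The distance of Klrd1 and Klrc1 was above the spread of each. Among 9549 genes, Klri2, which encodes a dimer partner of KLRE1, was the nearest to Klre1 (0.0760). Klri2 changed by 0.28 in wild-type (adjusted p 0.112) and -0.06 in Mirc11-/- cells (adjusted p 0.730) on stimulation, and neither was called. Ranbp1 was nearest to Ncr1 (0.0501), Dusp1 to Klrb1c (0.125), Pink1 to Klrb1b (0.120) and Serpinb6a to Klrg1 (0.110). Abi1 was nearest to Klrd1 (0.0614), Pdpk1 to Klrc1 (0.0812) and Dis3l2 to Klrc2 (0.0709). The likeness measures the pattern over these 12 libraries, which form 4 groups.

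The other genes of the receptors' pathways were taken from a list of 41, of which 40 were in the table and 35 were tested (Clec2e, Clec2f, Clec2g, Cdh2 and Cdh4 had at most 14 counts and were left out by the filter). In wild-type cells 7 rose and 11 fell on stimulation, and in Mirc11-/- cells 5 rose and 16 fell. Of all tested genes, 16.1% were called higher and 15.7% lower in wild-type cells, and 23.5% and 22.1% in Mirc11-/- cells. The median log2 change of the list was -0.04 and -0.22, against 0.02 and 0.03 over all tested genes. Clec2d, which encodes Clr-b, the ligand of the receptor encoded by Klrb1b, was among the genes that rose. It went from 24.7 to 88.7 CPM on average in wild-type cells (log2 change 1.85, SE 0.11, adjusted p 1.10e-07) and from 26.2 to 76.3 CPM in Mirc11-/- cells (1.54, SE 0.11, adjusted p 2.74e-07), so receptor and ligand messages were both higher in the same stimulated libraries. H2-T23, which encodes Qa-1, the ligand of CD94 with NKG2A or NKG2C, had a log2 change of 0.34 in wild-type (adjusted p 0.0535) and 0.08 in Mirc11-/- cells (adjusted p 0.616). Its wild-type value was called in 7 alternatives, among them DESeq2 (log2 change 0.33), the block within genotype (0.35), the vomeronasal covariate (0.75) and the fits without unstimulated wild-type replicate 2 (0.45) or stimulated Mirc11-/- replicate 1 (0.33). Between genotypes in stimulated cells it differed by -0.37 (adjusted p 0.071, not called), and DESeq2 (-0.38) and the fit with no filter (-0.45) called that difference.

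Of 4 signalling adaptors, 2 fell in each genotype, beside 15.7% and 22.1% of all tested genes called lower. Fcer1g, a chain used by NKR-P1C and NKp46, changed by -0.43 (adjusted p 0.0313) in wild-type and -0.79 (adjusted p 0.000533) in Mirc11-/- cells. Cd247, the other chain used by NKp46, changed by -0.46 (adjusted p 0.00551) and -0.89 (adjusted p 2.86e-05). With the vomeronasal covariate these 4 values were -0.04, -0.04, -0.20 and -0.39, and none was called. The wild-type call for Fcer1g also ended without unstimulated wild-type replicate 1 or 2 or without stimulated wild-type replicate 1 or 3, with log2 changes from -0.44 to -0.37. Tyrobp (DAP12), the adaptor of NKG2C, had log2 changes of 0.07 and -0.29 with adjusted p of 0.814 and 0.227. Hcst (DAP10), an adaptor of NKG2D, had 0.07 and -0.21 with adjusted p of 0.777 and 0.344, and the vomeronasal covariate turned its wild-type value into a call (0.72).

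Among 8 other receptor genes, 2 rose and 2 fell in wild-type cells, and 0 rose and 2 fell in Mirc11-/- cells, beside all-gene shares of 16.1% and 15.7%, and of 23.5% and 22.1%. Klrb1a, an NKR-P1 family member, fell by 1.17 (adjusted p 8.24e-05) and by 1.29 (adjusted p 2.58e-05) on the log2 scale, and the Mirc11-/- call ended with the vomeronasal covariate (-1.55). Cd69, a lectin-like activation antigen, fell by 1.64 (adjusted p 1.06e-06) and by 2.44 (adjusted p 4.49e-08), and in stimulated cells it was lower in Mirc11-/- than in wild-type libraries (log2 difference -0.84, adjusted p 0.00272), a call that ended with the covariate (-0.65). Klrk1, which encodes NKG2D, the stimulated receptor itself, had log2 changes of 0.32 (adjusted p 0.0473) and 0.14 (adjusted p 0.328). Its wild-type call ended with the covariate, without the filter on low counts, with DESeq2 size factors or with library totals alone. It also ended when any library was left out other than unstimulated wild-type replicate 2 or stimulated Mirc11-/- replicate 1, with log2 changes from 0.21 to 0.35. Of 14 kinases and signal proteins, 2 rose and 6 fell in wild-type cells and 3 rose and 10 fell in Mirc11-/- cells, while 31.8% and 45.6% of all tested genes were called in either direction. Vav3 changed by -0.74 (adjusted p 4.41e-06) and -0.74 (adjusted p 3.06e-06), and Pik3cd by -0.89 (adjusted p 4.62e-06) and -0.96 (adjusted p 1.54e-06), with both Mirc11-/- calls ended by the covariate (-0.68 and -0.74). In stimulated cells 4 listed genes were lower in Mirc11-/- cells, Cd69 and the signal proteins Lcp2 (-0.40, adjusted p 0.0119), Plcg2 (-0.30, adjusted p 0.0365) and Lat2 (-0.41, adjusted p 0.0407), and 0 were higher, beside 5.13% and 3.89% of all tested genes. All 3 of these signal protein calls ended with the vomeronasal covariate (-0.27, -0.12 and -0.03). The Lcp2 call also ended without stimulated wild-type replicate 2 (-0.39). The Plcg2 and Lat2 calls ended without unstimulated wild-type replicate 1, stimulated wild-type replicate 2 or 3, unstimulated Mirc11-/- replicate 2 or 3, or stimulated Mirc11-/- replicate 1 (from -0.31 to -0.23 and from -0.42 to -0.29), Plcg2 also without stimulated Mirc11-/- replicate 3 (-0.32) and with no composition factor (-0.24), and Lat2 also without unstimulated Mirc11-/- replicate 1 (-0.42). In unstimulated cells and for the interaction edgeR called 0 of the 35, and the interaction of Cd69 was called by DESeq2 (log2 difference -0.81), with no filter (-0.87) and with the block within genotype (-0.80).

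**Figure D4:**
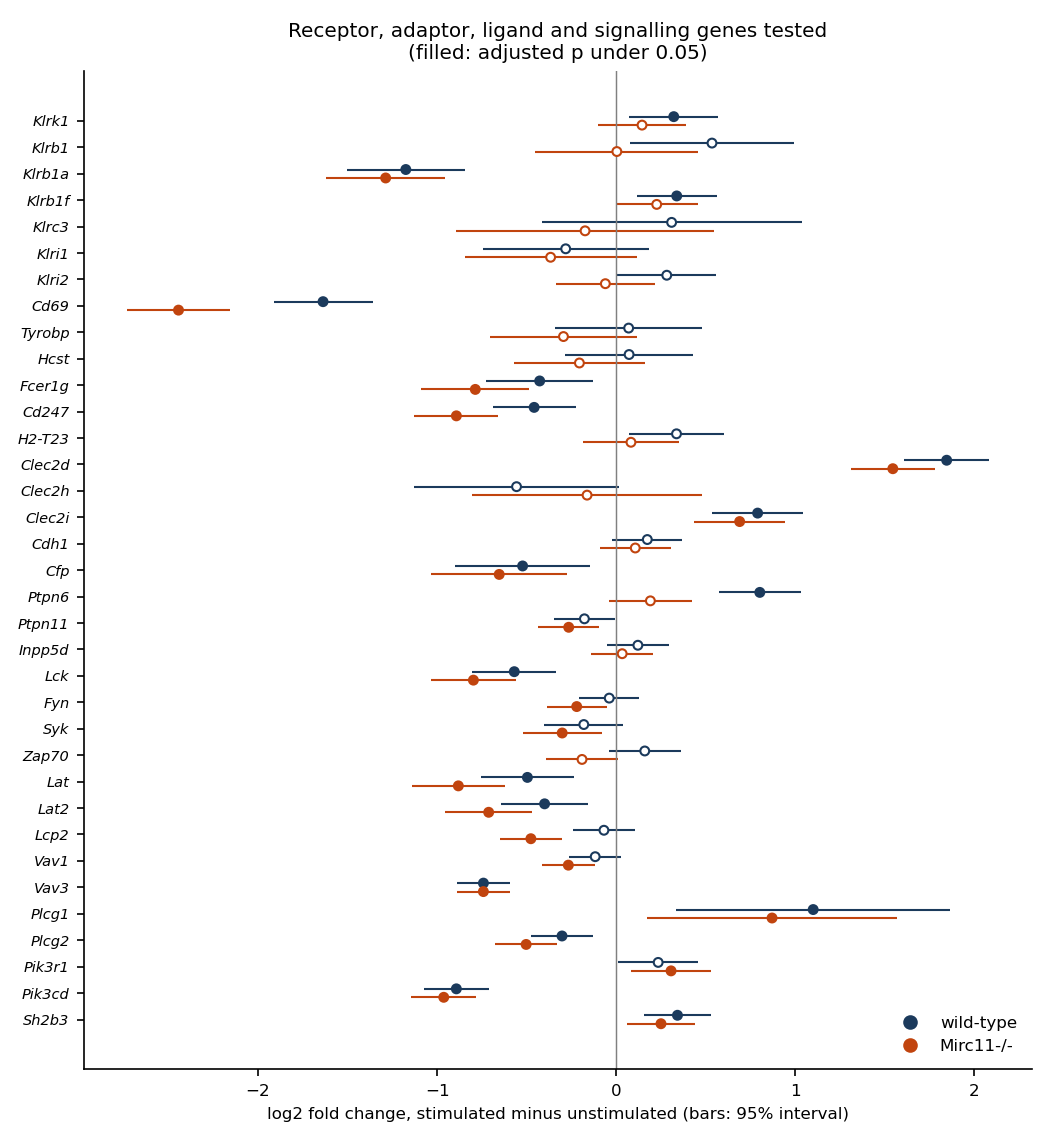
Log2 change on stimulation in wild-type and in Mirc11-/- cells (horizontal axis) for the 35 tested partner genes, with bars for the 95% interval and filled points for an adjusted p under 0.05. Clec2d lies farthest to the right and Cd69 farthest to the left in both genotypes.

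The promoters of Klrb1c and Ncr1, which fell together, and of Klrb1b, which rose, are shown with the matches of motifs in capitals. They come from RefSeq on GRCm38.p6, 300 bases each, and 6 of the 8 genes were in that table (not Klrd1 and Klrg1). Searched on both strands were AP-1 (TGANTCA, present in 7.93% of 27025 promoters), NF-kB (GGG and CC with any 5 bases between, 50.4%), Runx (TGTGGT, 16.9%), T-box (TCACACC, 3.96%) and NFAT (GGAAAA, 23.6%). Matches were found for NF-kB in 3 of the 6, for Runx in 5, for AP-1 in 1 (Klrc2), for NFAT in 1 (Klrc2) and for T-box in 0. In Ncr1 a Runx match begins at the base after the NF-kB match.
Klrb1c, chr6:128788592-128788891, minus strand: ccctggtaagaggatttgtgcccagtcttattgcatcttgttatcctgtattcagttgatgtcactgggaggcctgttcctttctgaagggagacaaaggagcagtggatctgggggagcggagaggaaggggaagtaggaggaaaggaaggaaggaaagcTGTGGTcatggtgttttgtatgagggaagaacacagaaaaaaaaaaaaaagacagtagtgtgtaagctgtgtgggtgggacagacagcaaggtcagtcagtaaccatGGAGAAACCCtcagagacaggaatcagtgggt
Klrb1b, chr6:128826266-128826565, minus strand: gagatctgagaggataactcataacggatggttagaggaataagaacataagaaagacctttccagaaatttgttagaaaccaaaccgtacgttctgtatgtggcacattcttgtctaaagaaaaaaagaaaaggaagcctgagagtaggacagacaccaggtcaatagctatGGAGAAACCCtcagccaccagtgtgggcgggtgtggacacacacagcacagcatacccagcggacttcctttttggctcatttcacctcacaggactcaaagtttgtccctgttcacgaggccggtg
Ncr1, chr7:4337465-4337764, plus strand: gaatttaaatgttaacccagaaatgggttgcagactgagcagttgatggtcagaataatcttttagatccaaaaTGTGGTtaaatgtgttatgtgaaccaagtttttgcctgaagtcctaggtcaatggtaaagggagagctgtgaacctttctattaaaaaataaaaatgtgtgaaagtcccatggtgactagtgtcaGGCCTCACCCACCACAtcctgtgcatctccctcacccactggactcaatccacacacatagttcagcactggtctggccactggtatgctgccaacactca
The capitals in Klrb1c are a Runx and an NF-kB match, in Klrb1b an NF-kB match, and in Ncr1 a Runx match followed by the joined NF-kB and Runx matches. A match says only that the letters are present in this window. Both genes that fell and the gene that rose hold an NF-kB match, which 50.4% of promoters hold.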

How the data were processed

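The authors deposited expected counts (whole numbers) for 50674 genes in 12 libraries of poly(A) RNA, and the submitters' processing notes name RSEM 1.3.0, Bowtie2 2.2.8, Trim Galore 0.4.1 and GRCm38. No source used here states the annotation release or strand setting. GENCODE vM21 matched 50367 of 50674 gene identifiers. Counts were filtered by edgeR 4.0.16's default rule (17457 genes kept), normalised with TMM and tested with edgeR's robust quasi-likelihood test over all 12 libraries, with 1 mean per group, in R 4.3.3 (Benjamini-Hochberg, threshold 0.05). The test was checked on simulated counts for stimulation in wild-type cells only, with far fewer changed genes than were called in the data. CPM are scaled to TMM-adjusted library totals. Sets of alternatives covered DESeq2 1.42.0, limma 3.58.1 voom, other scaling, no filter, a vomeronasal covariate, replicate blocks and single libraries left out. Same-numbered wild-type libraries deviated together across treatments (r 0.21 to 0.35 across genes), as did Mirc11-/- replicates 1 (0.19) and 3 (0.30) but not 2 (-0.08), and no label states that numbers pair samples. The genes, lists and ratios were chosen with earlier results of these data known. The 8 genes are named in every comparison, of the listed partners 7 always and up to 4 more by smallest p, and the nearest genes by RMS distance. The symbol Klrh1 was not analysed here.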

Additional observations from a re-analysis of the deposited data

How the results depend on the processing

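The 3 libraries a group limit precision, and depth is not limiting for genes with at least 483 counts per library. The number of the 8 genes called on stimulation in wild-type cells was 5 and ran from 3 to 6 as single libraries were left out, and in Mirc11-/- cells it was 3, ran from 3 to 5, and was 1 with the vomeronasal covariate. In the genotype comparisons it was 0 in unstimulated cells (1 with DESeq2, 0 to 1 without single libraries) and 1 in stimulated cells (0 with the covariate). Over all tested genes, the calls on stimulation in Mirc11-/- cells fell from 7958 to 560 with the covariate. The interaction had 2 calls, 47 with no filter, 68 with DESeq2, 0 with the covariate, 13 with the replicate block within genotype and 0 to 19 without single libraries. Unstimulated genotype calls were 193, 382 with DESeq2 and 72 to 404 without single libraries. Stimulated ones were 1575, 2366 with DESeq2, 30 with the covariate and 337 to 2397 without single libraries. The vomeronasal sum follows the groups, so the covariate cannot be told apart from stimulation or, in stimulated cells, from genotype. The cause of the other differences was not tested. Lat2 on stimulation in Mirc11-/- cells changed direction with the covariate (log2 change 0.0036, adjusted p 0.997).

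With the replicate number as a block within genotype, the pairing gave 1 more call among the 8 genes, Klre1 in wild-type cells (log2 change 0.28, adjusted p 0.0408), and changed no other call among them. For the genotype difference in the Klrc1 to Klrc2 ratio (-0.34), a replicate block over same-numbered libraries of the 2 genotypes gave an exact sign-flip permutation p of 0.0312, the smallest it can give, but these libraries share only a number. With 1 value per number and genotype, chosen after seeing the data, the difference was -0.34 with an exact permutation p of 0.1, also the smallest possible.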
